A study of Equus caballus with 21 samples.

Results

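LRP2, CXCL14, SPX and CTTNBP2 are 4 of the 24942 genes counted in horse endometrium, and they were chosen by their measured levels, which in earlier results of these data were higher in the uterine glands than in luminal epithelium and stroma. That difference is therefore described below without a test. Whether they differed between pregnancy and the cycle played no part in the choice and was tested. LRP2 (gene ID 100062836) is an endocytic receptor, CXCL14 (100072697) is a secreted chemokine and SPX (100147193) encodes the secreted peptide spexin. CTTNBP2 (100071265) encodes an intracellular scaffold protein, so it is neither a receptor nor a secreted peptide.

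The samples were uterine biopsies of warmblood mares taken on day 12 after induced ovulation, either in a control estrous cycle or in pregnancy after insemination. All mares had received human choriogonadotropin to induce ovulation. Luminal epithelium (LE, the lining that faces the uterine cavity), glandular epithelium (GE) and stroma (S, the connective tissue between the glands) were cut from stained frozen sections by laser capture, and each library came from 1 compartment of 1 biopsy. The groups were 5 cyclic and 4 pregnant LE libraries, 4 cyclic and 4 pregnant GE libraries, and 2 cyclic and 2 pregnant S libraries, 21 in all. Letters in the labels mark 5 mares, fewer than the 6 of the protocol, and mares B, C, M and U were biopsied in both states. Mare J gave only a cyclic LE library. Cyclic stroma came from mares B and M and pregnant stroma from mares M and U.

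LRP2, also called megalin, is a very large member of the low-density lipoprotein (LDL) receptor family. It sits on the apical surface of absorptive epithelia, where it binds vitamin carriers, lipoproteins, hormones and protease complexes and brings them into the cell through clathrin-coated pits. CXCL14 is a chemokine made by many epithelia in the resting state, and it attracts monocytes and dendritic cells. Spexin is cut from a precursor protein by prohormone convertases and acts on the galanin receptors GALR2 and GALR3. CTTNBP2 binds cortactin, a regulator of the actin cytoskeleton, and the striatin complexes that hold protein phosphatase 2A, and it is best known from neurons. In the mare the glands secrete the histotroph that feeds the conceptus before a placenta forms.

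Total counts ran from 136259 to 1467510 per library, 4072 to 11798 genes had a count, and 18S ribosomal RNA (RN18S) took 0.293% to 66.2% of a library. Levels are given in CPM, counts scaled to the TMM-adjusted size of each library, and 3 counts corresponded to 1.70 to 20.3 CPM, depending on the library. CPM is not divided by gene length, so levels are compared between libraries and not between genes. Among the 7 gland markers listed for the label check, FOXA2 had no count in any library, 4 (PAX8, PRSS23, SERPINA14 and SPINK7) had a higher mean in LE than in GE, and SOX17 and P19 had a higher mean in GE. P19, which encodes the secreted lipocalin uterocalin, made up most of the marker sum, and its mean was 26384 CPM in GE, 2037 in LE and 2379 in S. The sum over the 7 markers was 12459 to 52996 CPM in GE, 1440 to 4916 in LE and 978 to 5637 in S. The sum over 7 stromal fibroblast markers was 4053 to 9906 CPM in S, 609 to 5028 in LE and 311 to 1499 in GE.

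Both libraries that the authors left out of their 19-library table came from mare M, and both stood apart in the marker sums. In cyclic GE of mare M the epithelial markers, mainly EPCAM, summed to 14930 CPM, against 874 to 1804 in the other 7 GE libraries, and the gland markers had their lowest sum in GE, 12459 CPM. In pregnant LE of mare M the fibroblast markers summed to 5028 CPM, within the range of stroma, against 609 to 2206 in the other 8 LE libraries. The ciliated cell markers summed to 87.1 CPM there, against 893 to 2053. That library had the lowest total of all, 136259 counts. Cyclic GE of mare M held the highest CXCL14, SPX and CTTNBP2 of all libraries. Several values, but not the correlations, are therefore also given without the library they rest on.

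LRP2, the receptor, was high in every gland library. In cyclic GE it stood at 1161 CPM in mare B, 371 in mare C, 1479 in mare M and 1158 in mare U. In pregnant GE it stood at 518 CPM in mare B, 883 in mare C, 1455 in mare M and 1527 in mare U. The states overlapped, with group means of 1042 ± 472 CPM in cyclic and 1096 ± 481 CPM in pregnant GE (SD, n = 4 each). In cyclic LE it was 37.5 CPM in mare B, 62.0 in C, 5.62 in J, 12.4 in M and 14.9 in U, and in pregnant LE it was 10.2 CPM in mare B, 30.7 in C, 0 in M and 33.6 in U. Every GE library lay above every LE library.

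Within a biopsy, the ratio of LRP2 in GE to LE ran from 5.98 in the cyclic biopsy of mare C to 119 in the cyclic biopsy of mare M. The 95% exact interval was 4.56 to 7.94 for the lower ratio and 45.7 to 440 for the higher, which rests on 4 luminal counts. These intervals cover counting error only. Outside mare M the ratio reached 77.9, in the cyclic biopsy of mare U. In the pregnant biopsy of mare M, LE held no LRP2 count, and GE was at least 94.6-fold higher against a floor of 3 counts. This bound rests on the luminal library with fibroblast markers in the stromal range. Over the 8 biopsies with both epithelia, the fitted log2 fold change of GE against LE was 5.59 ± 0.72 (SE), and without mare M it was 4.99 ± 0.63. This fit, like those against LE and S below, treated the 2 biopsies of a mare as separate. With counts summed per mare it was 5.51 ± 0.53. In such captured tissue, fewer cells of a type and less RNA per cell cannot be told apart.

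Stromal LRP2 differed greatly between libraries. It was 31.5 CPM in cyclic mare B, 12.0 in cyclic mare M and 18.9 in pregnant mare U, but 297 CPM (158 counts) in pregnant mare M. All of these lay below the lowest GE library, while the S and LE ranges overlapped. In the pregnant biopsy of mare M the GE to S ratio was 4.91 (95% exact interval 4.13 to 5.86), against 36.9, 80.9 and 123 in the other biopsies. The ratio of 123, in the cyclic biopsy of mare M, rests on 2 stromal counts (95% exact interval 33.7 to 1023). The fitted log2 fold change of GE against S was 4.97 ± 1.28 over 4 biopsies and 5.88 without the pregnant biopsy of mare M.

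**Figure D1:**
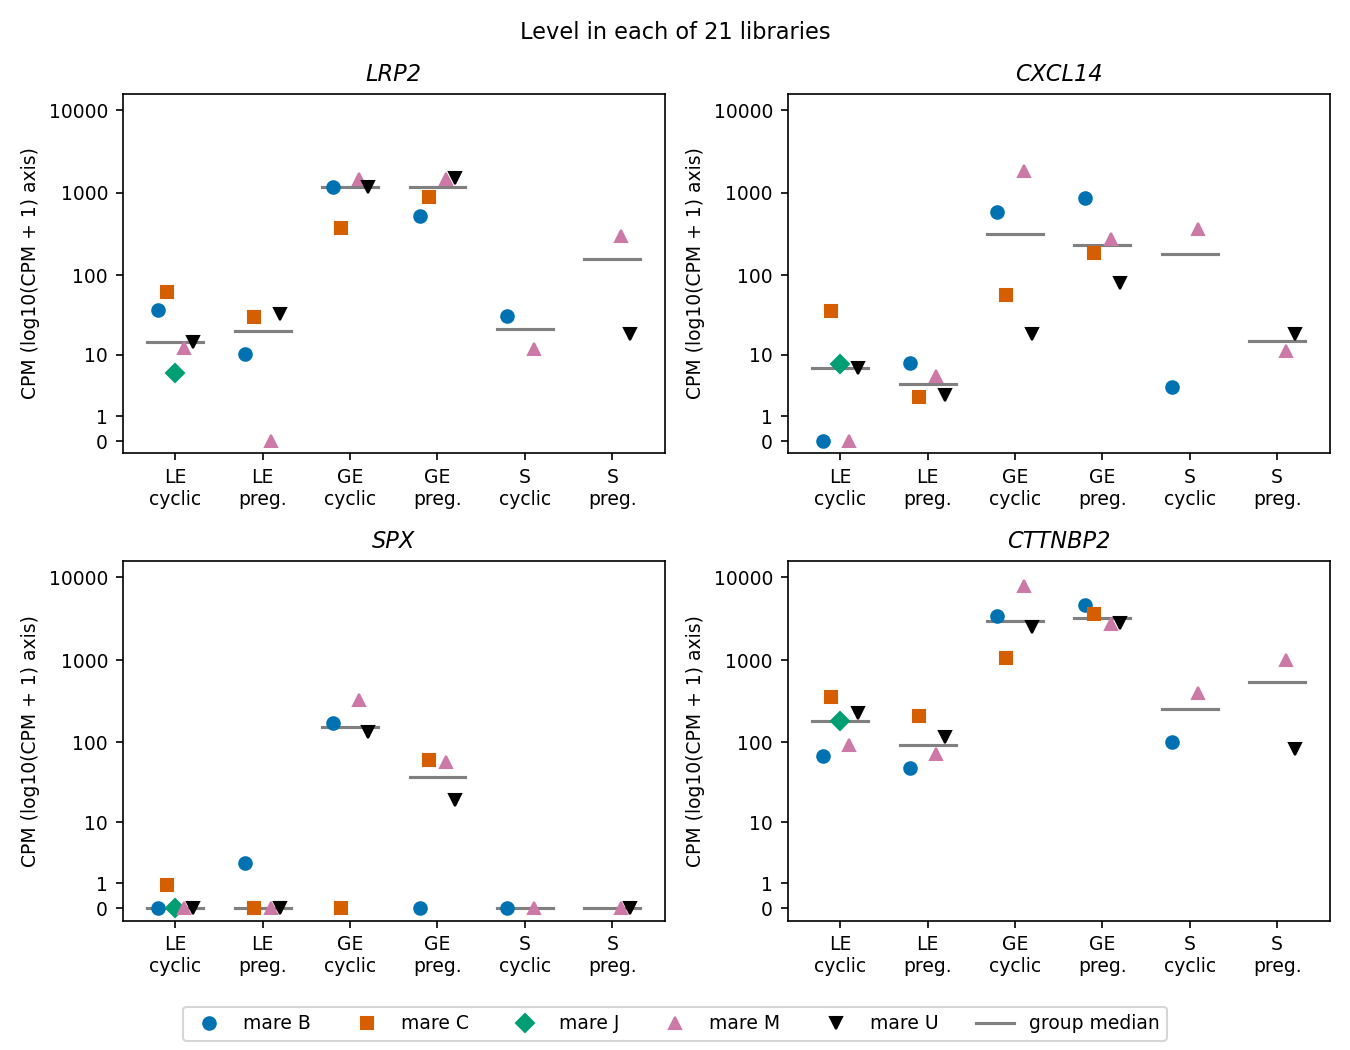
Level of each gene in the 21 libraries, in CPM on a log10(CPM + 1) axis. Each point is 1 library, its symbol gives the mare, and the grey line is the group median; LRP2 and CTTNBP2 lie above all luminal and stromal libraries in all 8 gland libraries, whereas SPX is at 0 in 2 gland libraries.

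CXCL14, the chemokine, varied far more among gland libraries than LRP2 did. In cyclic GE it was 578 CPM in mare B, 57.7 in mare C, 1816 in mare M and 18.8 in mare U (9 counts). In pregnant GE it was 867 CPM in mare B, 185 in mare C, 279 in mare M and 79.4 in mare U. The highest gland library thus held 96.8 times the CPM of the lowest, against 4.11 times for LRP2 and 7.41 times for CTTNBP2. Without cyclic mare M these ratios were 46.2, 4.11 and 4.33. In both states mare B was high and mare U was the lowest, while mare M was the highest in the cycle only. The group means were 618 ± 839 CPM in cyclic and 352 ± 353 CPM in pregnant GE (SD, n = 4 each), and the cyclic mean was 218 ± 312 CPM without mare M (n = 3).

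Luminal CXCL14 was close to the detection limit except in 1 library. Cyclic LE held no count in mares B and M, 7.50 CPM in mare J, 6.60 in mare U and 36.0 in mare C (40 counts). Pregnant LE held 7.69 CPM in mare B, 2.36 in C, 5.13 in M and 2.58 in U, from 1 to 3 counts per library. GE was above LE of the same biopsy in 8 of 8 biopsies, but 7 of the 8 GE libraries, not all, lay above the highest LE library.

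Within biopsies the CXCL14 ratio of GE to LE was 1.60 in the cyclic biopsy of mare C (95% exact interval 0.998 to 2.57) and 2.84 in that of mare U (0.794 to 12.6). Elsewhere the ratio reached 113 in the pregnant biopsy of mare B, and with no luminal count it was at least 92.5 in the cyclic biopsy of mare B and at least 195 in that of mare M. The fitted log2 fold change of GE against LE was 5.67 ± 1.03, and 4.81 ± 1.08 without mare M.

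In stroma CXCL14 followed another pattern than LRP2. Cyclic mare M held 360 CPM (60 counts), above 5 of the 8 gland libraries, while cyclic mare B held 3.50, pregnant mare M 11.3 and pregnant mare U 18.9 CPM. The stromal library that was high in CXCL14 was thus not the one that was high in LRP2. In that cyclic stromal library P19 stood at 5.85% of its mean in glands, and the fibroblast marker sum was 9906 CPM, the highest of the 4. The part of captured gland cells in its CXCL14 level was not tested. The S and LE ranges of CXCL14 overlapped.

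SPX, the spexin gene, was counted almost only in gland libraries. In cyclic GE it was 171 CPM in mare B, 0 in mare C, 324 in mare M and 133 in mare U. In pregnant GE it was 0 in mare B, 60.2 CPM in mare C, 56.8 in mare M and 19.2 in mare U (8 counts). The 2 gland libraries without a count allow up to 4.68 CPM in cyclic mare C and 6.81 CPM in pregnant mare B, by a floor of 3 counts that covers counting error only. Outside the glands, 1 count stood in cyclic LE of mare C and 1 in pregnant LE of mare B, and the 4 stromal libraries had none. Those 2 luminal counts came from the very biopsies whose glands held no SPX count.

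In the 6 biopsies with SPX in GE, the level was at least 2.48-fold to at least 34.7-fold higher than in LE, each against a luminal floor of 3 counts. The group means were 157 ± 133 CPM in cyclic and 34.1 ± 29.3 CPM in pregnant GE (SD, n = 4 each), and the cyclic mean was 102 ± 90.0 CPM without mare M (n = 3). The fitted log2 fold change of GE against LE was 6.21 ± 2.05 (5.26 ± 2.63 without mare M) and that against S was 8.37 ± 2.94. Both rest on counts near 0 outside the glands, depend on the prior count and set no bound.

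CTTNBP2, the cortactin-binding scaffold, was counted in every library. In cyclic GE it was 3423 CPM in mare B, 1059 in mare C, 7847 in mare M and 2530 in mare U. In pregnant GE it was 4580 CPM in mare B, 3589 in mare C, 2700 in mare M and 2818 in mare U. Both the lowest and the highest gland library were cyclic, and the group means were 3715 ± 2922 and 3422 ± 867 CPM (SD, n = 4 each). Without mare M the cyclic mean was 2337 ± 1194 CPM (n = 3). LE held 68.7 (B), 361 (C), 184 (J), 93.3 (M) and 231 CPM (U) in the cycle and 48.7 (B), 210 (C), 71.8 (M) and 116 CPM (U) in pregnancy. Every GE library lay above every LE library.

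For CTTNBP2 the GE to LE ratio within a biopsy ran from 2.94 in the cyclic biopsy of mare C (95% exact interval 2.59 to 3.33) to 94.1 in the pregnant biopsy of mare B. The fitted log2 fold change was 4.74 ± 0.56, and 4.35 ± 0.45 without mare M. Stroma held 101 CPM in cyclic mare B, 402 in cyclic mare M, 83.1 in pregnant mare U and 993 in pregnant mare M. As for LRP2, the pregnant stroma of mare M was the highest, and its GE to S ratio of 2.72 was the lowest of the 4 biopsies, where the others were 19.5 to 33.9. The fitted log2 fold change against S was 3.82 ± 0.97, and 4.57 without that biopsy. The S and LE ranges overlapped.

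In the fit of GE against LE, 182 of 6884 genes (2.64%) were higher in GE at an adjusted p under 0.05 and 2.27% were lower, and by fold change SPX ranked 26, CXCL14 58, LRP2 67 and CTTNBP2 149. Every GE library lay above every LE library for 0.654% of these genes, LRP2 and CTTNBP2 among them. In the fit of GE against S, 0.173% of 5776 genes were higher in GE, and every GE library lay above every S library for 3.53%, again including LRP2 and CTTNBP2. By fold against S, SPX ranked 8, LRP2 409, CTTNBP2 875 and CXCL14 999. The median log2 fold change over all genes was 1.06 in the fit against S and 0.30 in the fit against LE. These contrasts chose the genes, so nothing is read from the ranks.

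**Figure D2:**
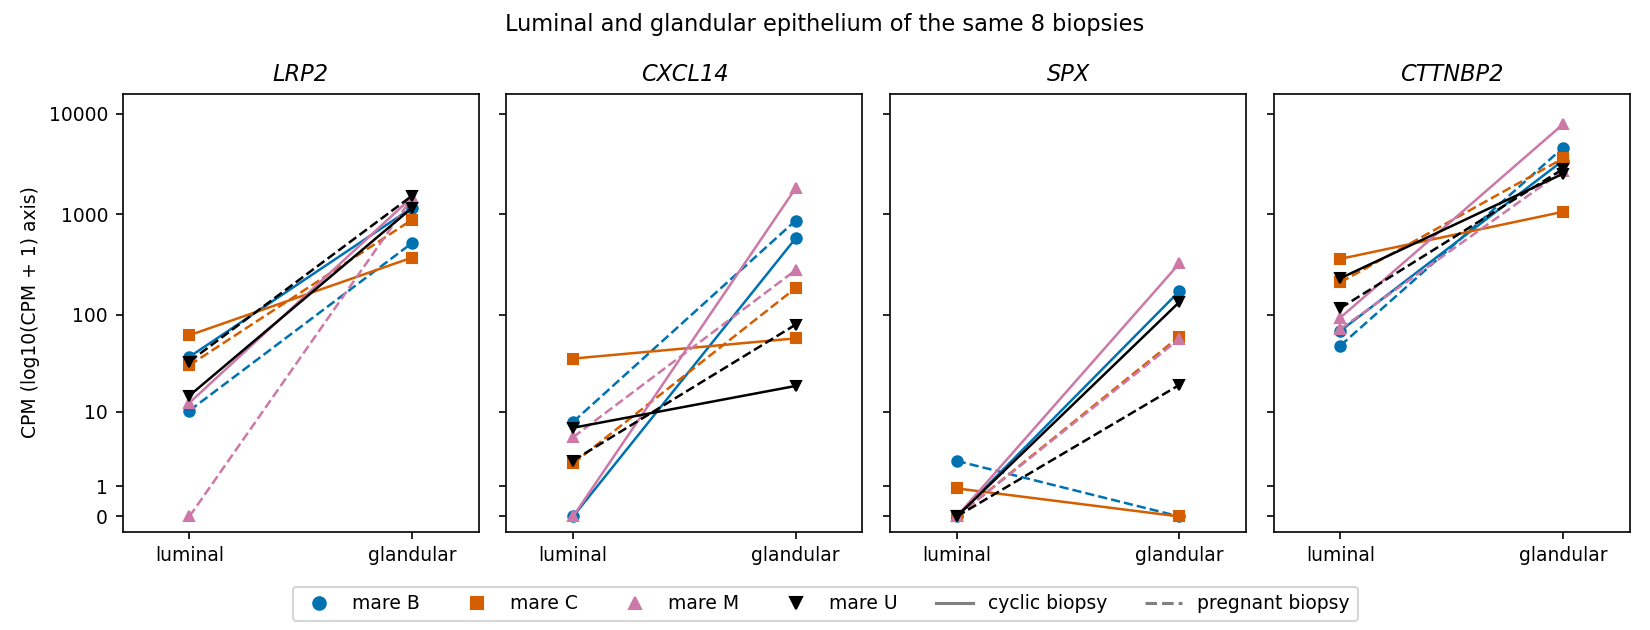
Level of each gene in luminal and glandular epithelium of the same 8 biopsies, in CPM on a log10(CPM + 1) axis. Each line joins the libraries of 1 biopsy, solid for cyclic and dashed for pregnant. The cyclic biopsy of mare C has the flattest lines for LRP2 (ratio 5.98) and CTTNBP2 (2.94). In 2 biopsies SPX has 1 count in LE and none in GE, too few to order the compartments.

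The cyclic biopsy of mare C gave the lowest GE to LE ratio for LRP2, CXCL14 and CTTNBP2, and its glands had no SPX count. Its GE library held the lowest LRP2 and CTTNBP2 of all 8 gland libraries, and its LE library held the highest LRP2, CXCL14 and CTTNBP2 of all 9 luminal libraries. P19 did not show this, since its GE to LE ratio was 16.03 there, close to the median of 17.9 over the 8 biopsies. The P19 ratio was lowest, at 2.41, in the cyclic biopsy of mare M, where LRP2 had the highest of the 7 ratios that could be computed. The ciliated cell marker sum, which was 18.9 to 674 CPM in GE and 87.1 to 2053 CPM in LE, was at its gland maximum in the cyclic GE library of mare C. The part of luminal cells in that library was not tested.

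Set against the mean of the 8 gland libraries, the mean over LE was 2.15% for LRP2, 1.55% for CXCL14, 0.402% for SPX, 4.31% for CTTNBP2 and 7.72% for P19. Without cyclic GE of mare M the gland mean was 295 rather than 485 CPM for CXCL14 and 63.0 rather than 95.7 CPM for SPX. For CTTNBP2 it was 2957 rather than 3568 CPM, and for LRP2 1010 rather than 1069 CPM. The luminal and stromal percentages of these genes rise accordingly. CXCL14 in cyclic stroma of mare M, at 360 CPM, lay above this gland mean of 295 CPM, which leaves out the glands of the same biopsy. Those glands held 1816 CPM, a GE to S ratio of 5.04. In the pregnant stroma of mare M, LRP2 stood at 27.7%, CTTNBP2 at 27.8% and P19 at 20.7% of their gland means, while CXCL14 stood at 2.32% and SPX had no count. RN18S took 66.2% of that library, the highest share of the 21, and SOX17 stood at 6.43% of its gland mean. Its fibroblast marker sum of 4053 CPM was the lowest of the 4 stromal libraries. Over the other 3 stromal libraries LRP2 stood at 1.95%, CTTNBP2 at 5.48%, P19 at 5.12% and CXCL14 at 26.3%. The part of captured gland cells in these stromal values was not tested.

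**Figure D3:**
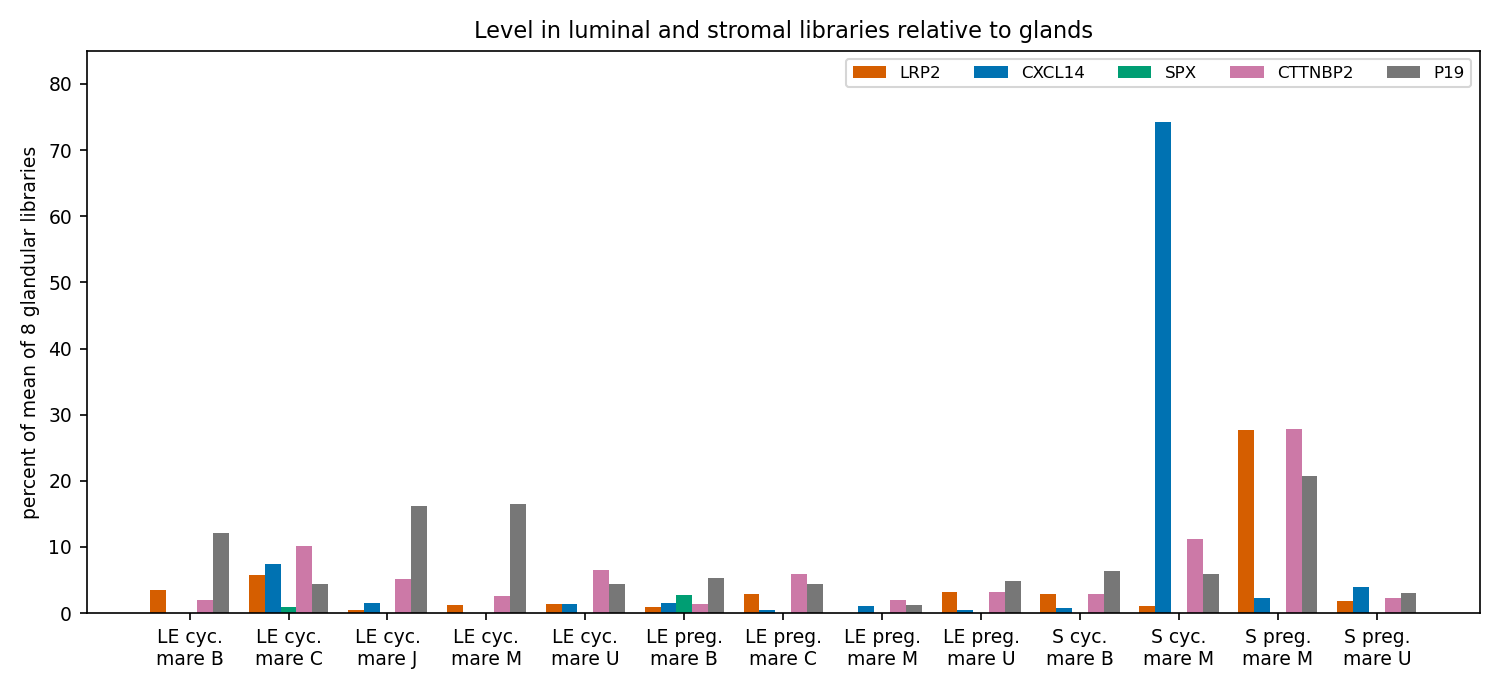
Level of the 4 genes and of P19 in each luminal and stromal library, as a percent of the mean of the 8 glandular libraries. Bars are single libraries. In the pregnant stroma of mare M, LRP2 (27.7%), CTTNBP2 (27.8%) and P19 (20.7%) stand together. In the cyclic stroma of mare M CXCL14 reaches 74.3% of a gland mean that includes cyclic GE of mare M. Its 360 CPM there lies above the gland mean without that library, 295 CPM, and below the 1816 CPM of the glands of the same biopsy.

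The spread among gland libraries separated the genes. Over the 8 GE libraries the coefficient of variation was 41.4% for LRP2, 56.1% for CTTNBP2, 116% for SPX and 126% for CXCL14, beside a median of 93.0% over 4816 genes. Without cyclic mare M it was 43.8%, 36.8%, 106% and 107%, in the same order of genes. Of these genes, 2.16% varied less than LRP2 and 9.22% less than CTTNBP2. The genes were not matched for level, and low counts raise this measure, so the values describe these libraries only.

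Pregnancy was tested in glands first, as the compartment where all 4 genes passed the filter on low counts. The main fits within a compartment had no term for the mare, so the 2 states of a mare counted as independent libraries. None of the 4 passed at an adjusted p under 0.05 in edgeR's quasi-likelihood test, nor at an unadjusted p under 0.05. Over all 4816 genes tested, 0.0623% passed after adjustment and 7.27% had an unadjusted p under 0.05. For LRP2 the log2 fold change of pregnant against cyclic glands was 0.13 ± 0.72 (SE), and the pregnant library was higher in 2 of 4 mares. For CTTNBP2 it was -0.05 ± 0.71. Both edgeR adjusted p-values were 0.999, and with 4 libraries a state the standard errors leave room for changes of either sign.

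CTTNBP2 and CXCL14 were each higher in the pregnant glands of mares B, C and U and lower in those of mare M. In mare M the log2 difference was -1.54 for CTTNBP2 and -2.71 for CXCL14. The cyclic GE library of mare M held the highest level of both genes, and also the fewest counts of any gland library, 222623. For CXCL14 the fitted log2 fold change was -0.69 ± 0.86 (edgeR adjusted p = 0.999), and without that library it was 0.76. For CTTNBP2 it was 0.58 without that library, and 0.015 to 0.15 without the pregnant library of mare C, U or M. The signs of both estimates thus turned without that library, and they turned in other fits as well. Over 17 alternative fits the sign turned in 5 for CXCL14 (range -1.54 to 1.502). For CTTNBP2 it turned in 9 (range -0.54 to 0.69).

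SPX had the estimate farthest from 0 in this fit, a log2 fold change of -2.13 ± 1.26 in pregnant against cyclic glands, which did not pass (edgeR adjusted p = 0.828). The pregnant library was lower in mares B, M and U, at 0 against 171 CPM, 56.8 against 324 CPM and 19.2 against 133 CPM. In mare C it was the other way round, at 60.2 CPM in pregnancy against 0 in the cycle. The states overlapped for all 4 genes, where 2.82% of the genes tested did not overlap. The SPX estimate ranged from -2.66 to -0.80 over 17 alternative fits, with adjusted p-values of 0.519 to 1.00. It was -1.56 ± 1.35 without cyclic GE of mare M and -0.80 ± 1.65 with limma on the authors' 19 libraries, where CXCL14 (1.502) lay farther from 0 than SPX.

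In LE, LRP2 and CTTNBP2 had enough counts to be tested, and neither passed, where 0.437% of 4344 genes did and 7.80% had an unadjusted p under 0.05. The edgeR log2 fold change of pregnant against cyclic LE was -0.50 ± 1.54 for LRP2 (adjusted p = 0.987) and -0.77 ± 1.04 for CTTNBP2 (adjusted p = 0.973). Without pregnant LE of mare M these were -0.12 ± 1.82 and -0.62 ± 1.00. CTTNBP2 was lower in the pregnant library of each of the 4 mares with both states, although the 2 states overlapped. The share of all genes with 1 direction in all 4 mares was not computed, so nothing is read from this. Non-overlap was seen for 4.81% of the genes tested in LE.

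In stroma only CTTNBP2 passed the filter, at a log2 fold change of 1.31 ± 1.62 (edgeR adjusted p = 0.999), with the high pregnant library of mare M on one side. With 2 libraries a state, edgeR called 0 of 2212 genes there, DESeq2 called 4, and 3.98% had an unadjusted p under 0.05. None of the 4 genes had states that did not overlap in stroma, where 31.3% of the genes tested did.

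The difference of the pregnancy effect between glands and lumen was tested in the 16 libraries of the 8 biopsies, with the biopsy as a block. The 2 biopsies of a mare again counted as separate. Neither LRP2 nor CTTNBP2 passed, where 0.0145% of 6884 genes did (1 gene) and 5.53% had an unadjusted p under 0.05. The glandular minus luminal difference was 0.83 ± 1.25 for LRP2 and 0.81 ± 0.95 for CTTNBP2 on the log2 scale, with edgeR adjusted p-values of 0.945 and 0.928. Without mare M it was 0.66 ± 1.08 for LRP2 and 1.46 ± 0.76 for CTTNBP2. In the fit with mare M, the median of this difference over all genes was 1.28, so both genes lay below it there. CXCL14 and SPX entered this fit only through their gland counts, with 54 and 2 counts over all LE libraries. Their estimates, 1.03 ± 2.19 and -2.44 ± 4.15, hold almost no luminal effect and say nothing about a difference between the compartments.

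**Figure D4:**
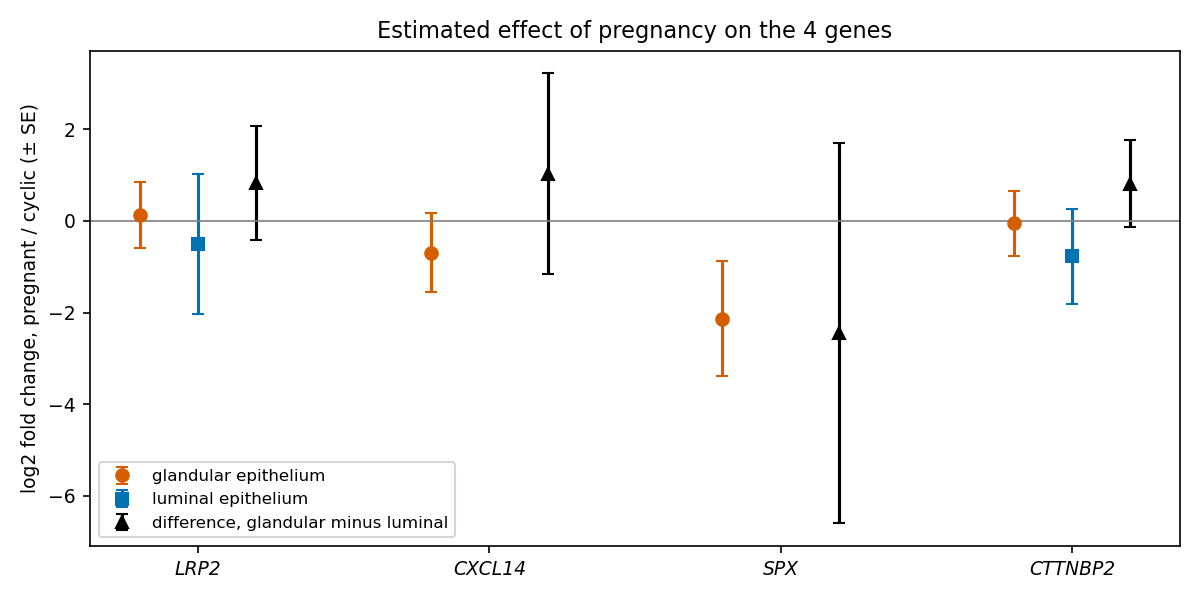
Log2 fold change of pregnant against cyclic libraries with its standard error, in glandular epithelium (circles), luminal epithelium (squares) and as the difference between them (triangles). A missing symbol means that the gene did not pass the filter on low counts, and the triangles of CXCL14 and SPX rest on few luminal counts; no estimate passed at an adjusted p under 0.05, and SPX in glands lies farthest from 0 among the gland estimates, at -2.13.

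The genes that work with LRP2 were then set against LE in the same fit. Of 12 other LDL receptor family genes in the table, 7 were tested for GE against LE and none passed, at a median log2 fold change of 1.82 beside 0.30 over all genes (4.91% of 6884 genes passed in either direction). LRP8, a receptor for apolipoprotein E and reelin, stood at 240 ± 144 CPM in GE and 58.5 ± 72.8 in LE (SD, n = 8 and 9). LRP10 stood at 125 ± 75.2 and 210 ± 159 CPM, and the sorting receptor SORL1 at 78.5 ± 64.0 and 218 ± 153. The WNT co-receptor LRP5 stood at 59.0 ± 85.7 in GE, 33.4 without its highest library, and 14.7 ± 31.1 in LE. LRP8 had the log2 fold change 2.52 ± 1.01 and LRP5 3.90 ± 2.03, with edgeR adjusted p-values of 0.149 and 0.353.

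Of the 10 megalin partners and adaptors tested none passed either, and their median log2 fold change was -0.90. The endocytic motor MYO6 had a mean of 425 CPM in GE, which was 265 without cyclic GE of mare M, and 389 ± 288 in LE (SD, n = 9), so the order of the means turned with that library. The signalling adaptor APPL1 had a median of 48.1 CPM in GE and 9.89 in LE. The junctional scaffold MAGI1 had 18.7 and 102 CPM, and the recycling GTPase RAB11A 18.5 and 35.4. Cubilin (CUBN), the receptor that megalin internalises, had a mean of 27.7 CPM in GE and 73.7 in LE (medians 22.9 and 51.3). The clathrin adaptor DAB2 had a mean of 14.0 CPM in GE and 120 in LE (medians 8.34 and 118). Its log2 fold change was -2.89 ± 1.26 (edgeR adjusted p = 0.210).

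The clathrin coat and early endosome genes were counted in both epithelia. Of 11 tested none passed, at a median log2 fold change of 0.41. The clathrin heavy chain CLTC stood at 234 ± 117 CPM in GE and 407 ± 326 in LE. The late endosomal GTPase RAB7A stood at 212 ± 130 and 281 ± 223, the coat protein EPS15 at 150 ± 61.1 and 69.0 ± 69.5, and the adaptor subunit AP2M1 at 94.3 ± 59.8 and 127 ± 290 CPM. AP2M1 reached 899 CPM in its highest luminal library, and its medians were 99.9 CPM in GE and 31.1 in LE. Its fitted log2 fold change was 1.11 ± 1.05 (edgeR adjusted p = 0.730), opposite in direction to the means.

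Among genes for megalin ligands, 8 were tested, 1 was higher in GE and 2 were lower, at a median log2 fold change of -1.71. SELENOP, the selenium transport protein that kidney and brain take up through receptors of this family, ran from 529 to 10372 CPM in GE, with a median of 1143, and from 43.6 to 999.5 CPM in LE, with a median of 538. Its gland mean was 2261 CPM with and 1102 without cyclic GE of mare M. Its GE library was the higher in 7 of 8 biopsies, and the log2 fold change was 1.67 ± 0.55 (edgeR adjusted p = 0.0464). RBP4, the plasma retinol carrier, had no count in 3 of 8 GE libraries and reached 156 CPM there, while LE held 22.5 to 513 CPM. It was lower in GE in 8 of 8 biopsies, at -4.76 ± 1.26 (edgeR adjusted p = 0.00741). In the pregnancy fits RBP4 passed the filter on low counts in lumen but not in glands. It thus entered the comparison through the compartment where it is high.

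CLU, the extracellular chaperone clusterin, ran from 2.09 to 173 CPM in GE and from 24.4 to 643 CPM in LE, and was lower in GE in 8 of 8 biopsies at -3.17 ± 1.04 (edgeR adjusted p = 0.0485). CLU, like RBP4, passed the filter in lumen but not in glands, so the lower GE level of both is read as a description only. The calls of SELENOP, RBP4 and CLU treated the 2 biopsies of a mare as separate. With counts summed per mare all 3 passed, at edgeR adjusted p-values of 0.00115 (SELENOP), 0.00205 (RBP4) and 0.00348 (CLU). Without mare B none of the 3 passed (RBP4 0.0573, CLU 0.366, SELENOP 0.545), nor without mare C (0.132, 0.249 and 0.148). Without mare U, CLU (0.272) and SELENOP (0.186) did not pass, nor did they under another scaling, RLE (0.0535 and 0.0925).

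CLU was also lower in GE than in S, at -5.68 ± 1.41 (edgeR adjusted p = 0.0324 over 4 biopsies), where it ran from 318 to 1945 CPM. In that fit 0.467% of 5776 genes passed in either direction, 0.294% of them lower in GE. Without the pregnant stroma of mare M the estimate was -6.27 and the adjusted p 0.469. CTSB, the lysosomal protease cathepsin B, stood at 78.5 ± 60.5 CPM in GE against 307 ± 234 in LE (edgeR adjusted p = 0.0949).

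Among 20 other chemokines and chemokine receptors in the table, 3 had enough counts to be tested for GE against LE, and none passed. Single libraries carried their gland means. The mucosal chemokine CCL28 ranged from 0 to 1891 CPM in GE with a median of 43.0, and it had a mean of 270 CPM with and 38.2 without cyclic GE of mare M. CCL5 had a mean of 24.3 CPM with and 3.75 without pregnant GE of mare U. CXCL16 had 21.4 with and 1.299 without cyclic GE of mare C, and the receptor CXCR4 had 8.82 with and 2.95 without that same library. CXCL16 had 83.5 ± 151 CPM in LE and a log2 fold change of -4.43 ± 1.64 (edgeR adjusted p = 0.101).

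The receptors and relatives of spexin were not detected. GAL, GALP, GALR1, GALR2 and KISS1 had no count in any of the 21 libraries, and GALR3 and KISS1R could not be matched by name and were not analysed here. Of the genes that cut and modify peptide hormones, the neuroendocrine convertases PCSK1 and PCSK2 had no count in GE, LE or S. FURIN, the convertase of most cells, stood at 422 ± 300 CPM in GE and 221 in LE. The carboxypeptidase CPD stood at 794 ± 274 CPM in GE and 290 in LE, with a log2 fold change of 1.495 ± 0.60 (edgeR adjusted p = 0.147). PAM, which amidates peptides, had a median of 115 CPM in GE and 183 in LE, and its gland mean was 212 with and 101 without cyclic GE of mare M. The carboxypeptidase CPE had a median of 20.3 CPM in GE and 0 in LE, and its gland mean was 102 with and 15.6 without that library. None of the 6 tested passed.

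Of the partners of CTTNBP2, 11 were tested for GE against LE and none passed, at a median log2 fold change of 0.20. SLMAP, a striatin complex member, stood at 175 ± 133 CPM in GE and 117 ± 124 in LE, the kinase STK24 at 114 ± 60.1 and 203 ± 237, and cortactin itself (CTTN) at 92.2 ± 77.6 and 146 ± 124 CPM. The kinase STK25 had a median of 41.8 CPM in GE and 1.65 in LE, and its gland mean was 106 with and 29.9 without cyclic GE of mare M. The neuronal markers SYP and SNAP25 had no count in any library, CHGA had a mean of 1.25 CPM in GE, and NCAM1 had 445 CPM in GE, 15.7 in LE and 42.3 in S. No gene of any of these lists passed in the pregnancy comparisons of glands, lumen or stroma, or in the difference between glands and lumen.

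**Figure D5:**
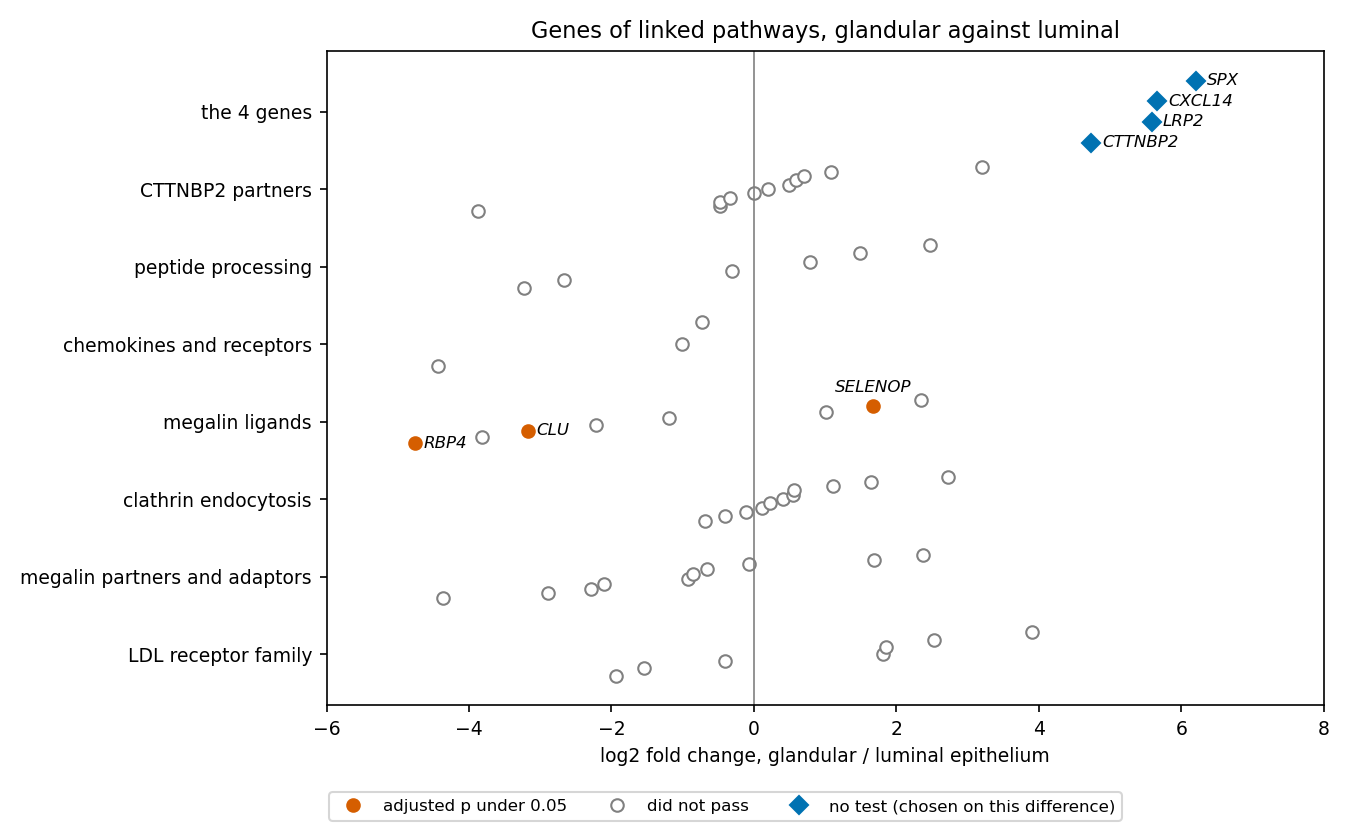
Log2 fold change of glandular against luminal epithelium for the tested genes of 7 lists and for the 4 genes. Filled circles passed at an adjusted p under 0.05, open circles did not, and diamonds had no test because this difference chose them; SELENOP (1.67), CLU (-3.17) and RBP4 (-4.76) are the list genes that passed.

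The genes whose log2 CPM ran most like each member over the 21 libraries were taken by Pearson's r among 9789 genes. For LRP2 they were SLCO1A2, an organic anion transporter (r = 0.93), PAPSS2, which makes the sulfate donor (0.92), and NCAM1, an adhesion molecule (0.91). CTTNBP2 ran most like SPP1, which encodes osteopontin (0.93), LOC100630794 (0.92) and coagulation factor F5 (0.91). SPX ran most like CDKN2AIPNL (0.91), LOC100630227 (0.90) and KMO, an enzyme of tryptophan breakdown (0.88). CXCL14 had lower values, at 0.83 for PRPSAP1, 0.81 for EPB41L2 and 0.80 for LOC100630858. All of these had their highest mean in GE, and the coefficients carry the difference between compartments and what libraries share, such as depth.

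LRP2 and CTTNBP2 ran together over the 21 libraries (r = 0.92), and the other pairs of the 4 genes lay between 0.63 and 0.83. Within the 8 gland libraries the order was another one. LRP2 and SPX had r = 0.80 and CXCL14 and CTTNBP2 had 0.76, while LRP2 and CTTNBP2 had 0.50 and LRP2 and CXCL14 had 0.13. The 2 gland libraries without an SPX count also held the lowest LRP2, 371 and 518 CPM. Cyclic GE of mare M held the highest CXCL14 and CTTNBP2. The coefficients were not computed without these libraries. They are descriptions over few libraries, several from the same mare. By rank correlation 0 of the 3 genes named for LRP2 were still among its first 3, against 2 of 3 for CXCL14 and 1 of 3 each for SPX and CTTNBP2.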

How the data were processed

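RNA of laser-captured luminal epithelium, glandular epithelium and stroma was sequenced in 21 libraries made with a kit for single cells, some with an extra amplification that the labels do not assign. Per the submitters' processing notes, the tools were Trimmomatic 0.32.2 (a trimmer) and HISAT2 2.0.3 (an aligner). For build, annotation, strand setting and counter nothing is given in the sources used here. All main results used the raw counts of 24942 genes that the authors deposited. The authors also deposited 2 tables of signal (scaled CPM, of 21 and of 19 libraries), used only as alternatives. The smaller table lacks cyclic glands and pregnant lumen of mare M. Symbols (85.9% of IDs) came from a RefSeq gene table and serve for names only. Counts were fitted with edgeR 4.0.16 (TMM, filterByExpr with a minimum count of 10 and a total of 15, quasi-likelihood test, Benjamini-Hochberg over all genes, two-sided, threshold 0.05) in R 4.3.3. The SE is the fold change divided by the root of F. Fold changes used a prior count of 0.125. DESeq2 1.42.0 and limma 3.58.1 (log2 of deposited CPM + 1 or + 10) served as alternatives. Only the edgeR fit of pregnant against cyclic glands was run on simulated data. The 4 genes and the lists were chosen with earlier results of these data known. Beside the 4 genes, the text names the 4 genes of each list with the highest mean CPM in glands, genes that passed a test, and the 3 genes most like each member. CUBN, DAB2, PCSK1, PCSK2 and the markers were named after their values were seen. Same letters mark the same mare, so the samples are paired by animal, but the main pregnancy fits within a compartment did not use this pairing. The mare as a block was an alternative. Correlations of same-mare deviations were -0.0245 to 0.0380 in glands and 0.0216 to 0.0548 in lumen.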

Additional observations from a re-analysis of the deposited data

Results flagged for a closer look

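CXCL14 in the cyclic luminal library of mare C, at 36.0 CPM, stood far above the other 4 cyclic luminal libraries, which held 0 to 7.50 CPM. SPX had 0.899 CPM in the same library and 2.56 CPM in the pregnant luminal library of mare B, each from 1 count where the other libraries of the group had none. The gap to the nearest library, as a share of the group's range, passed Dixon's 95% critical value in these 3 cases. That value assumes normally distributed data, which counts near 0 are not, so its nominal rate of 5% does not hold here. For SPX a single count is enough to pass it. The values of P19 and of the marker lists in these biopsies stand in the results, and their part in these levels was not tested.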

How the results depend on the processing

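Of the 4 genes, none that an alternative tested was called. All 4 were tested in all 17 gland alternatives and in all 8 for the difference. In lumen CXCL14 and SPX were tested in 5 of 18 alternatives, and in stroma, with 2 alternatives, SPX was tested in none. In glands, LRP2 turned to -0.19 with DESeq2 and -0.19 with RLE scaling and ran from -0.094 to 0.41 with 1 library left out. With the mare as a replicate block, which changed no call of these genes, CXCL14 turned to 0.58 and CTTNBP2 to 0.25. With limma on the deposited signal, CXCL14 turned to 0.39 (pseudocount 1), 0.27 (pseudocount 10) and 1.502 (19 libraries), and CTTNBP2 to 0.20, 0.19 and 0.69. Without the filter on low counts CTTNBP2 was 0.025. Leaving out 1 library gave -1.54 to 0.76 for CXCL14 and -0.28 to 0.58 for CTTNBP2. In lumen LRP2 turned to 0.19 with limma on 19 libraries. The difference between glands and lumen, which rests on few luminal counts for both genes, ran from -1.77 to 3.27 for CXCL14 and from -5.93 to 1.23 for SPX with 1 mare left out. Against lumen, SPX was 3.69 with a prior count of 2 and CXCL14 ran from 4.57 to 6.65 with 1 mare left out. The 3 list genes called for glands against lumen became 1 with RLE scaling, 6 with counts summed per mare (an alternative chosen after seeing the data, like leaving out the pregnant stroma of mare M) and 0 to 6 with 1 mare left out; the cause was not tested for these changes. The number of genes called over all genes in glands was 3, and it was 0 with DESeq2, with RLE and with the mare as block, 34 without a filter and 0 to 28 with 1 library left out. In lumen it was 19, against 83 with DESeq2, 15 without mare J and 12 with the block, a fit that also leaves out mare J. Promoter motifs were not searched. Low totals limit the luminal and stromal values, where 3 counts are up to 18.0 CPM.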
